A study of Mus musculus with 6 samples.

Results

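The miR-17 to 92 cluster and its paralog, the miR-106b to 25 cluster, were followed in the brain of C57BL/6J mice, which are inbred, after cerebral ischemia-reperfusion. The 10 mature miRNAs were taken by name, by a rule that uses no measured value but was proposed with earlier results of these data known: mmu-miR-17-5p, mmu-miR-18a-5p, mmu-miR-19a-3p, mmu-miR-19b-3p, mmu-miR-20a-5p and mmu-miR-92a-3p of the first cluster, and mmu-miR-106b-5p, mmu-miR-106b-3p, mmu-miR-93-5p and mmu-miR-25-3p of the second. The prefix mmu-, for mouse, is left out from here on. All 10 were among the 622 mature miRNA names listed for every library, of which 599 to 612 had counts, depending on the library. The ischemia-reperfusion group, labelled GCI, comprised 3 libraries (numbered 1, 2 and 3) from mice in which both carotid arteries had been ligated for 20 minutes, and the Sham group comprised 3 libraries (numbered 3, 6 and 7) from sham-operated mice listed with no treatment. The labels used here state neither the reperfusion time, the brain region nor the age of the mice. They also do not state whether every library is from its own mouse, and the p-values therefore reflect only the variation among these libraries, which may be technical.

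Both clusters are polycistrons: 1 primary transcript is cut into several hairpins, each of which yields a mature miRNA. The miR-17 to 92 cluster is switched on by MYC and E2F factors, is abundant in dividing cells such as neural progenitors and lymphocytes, and is best known for restraining cell-cycle inhibitors and pro-apoptotic genes. The miR-106b to 25 hairpins lie inside Mcm7, which encodes a subunit of the helicase that licenses DNA replication. A miRNA recognises its targets mainly through its seed, bases 2 to 8, so members with one seed share many predicted targets whichever cluster they come from.

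The mature sequences, from RefSeq on GRCm38.p6, are shown because the comparison was made by seed, and because members with the same seed differ from each other at few bases. Capitals mark the seed. All 10 members were matched in RefSeq. The first 4 sequences share the seed AAAGUGC, followed by miR-18a-5p with AAGGUGC, the miR-19 pair with GUGCAAA, the miR-92a and miR-25 pair with AUUGCAC, and miR-106b-3p, the opposite arm of the miR-106b hairpin, with CGCACUG.
miR-17-5p: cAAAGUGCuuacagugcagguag
miR-20a-5p: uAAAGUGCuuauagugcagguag
miR-93-5p: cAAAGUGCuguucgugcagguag
miR-106b-5p: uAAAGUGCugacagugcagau
miR-18a-5p: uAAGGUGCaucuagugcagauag
miR-19a-3p: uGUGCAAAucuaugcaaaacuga
miR-19b-3p: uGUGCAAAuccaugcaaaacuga
miR-92a-3p: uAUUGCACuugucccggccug
miR-25-3p: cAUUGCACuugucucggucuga
miR-106b-3p: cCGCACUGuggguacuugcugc

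Compared base by base from the 5′ end, miR-19a-3p and miR-19b-3p differ at 1 of 23 bases and miR-17-5p and miR-20a-5p at 2 of 23. In the same seed group, miR-93-5p differs from miR-106b-5p at 5 of the 21 bases they have in common and from miR-17-5p at 4 of 23. In the other pair, miR-92a-3p and miR-25-3p differ at 3 of 21. The rule by which reads matching several of these sequences were assigned is not known, so counts of the closest pairs may share reads.

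On GRCm38, GENCODE vM21 places the 6 hairpins of the miR-17 to 92 cluster within 836 bp of chromosome 14 (chr14:115043671-115044506, plus strand), where they overlap exons of the noncoding host gene Mir17hg. The miR-106b, miR-93 and miR-25 hairpins lie within 498 bp of chromosome 5 (chr5:138165321-138165818, minus strand). The miR-106b hairpin is in an intron of Mcm7, and those of miR-93 and miR-25 overlap an exon of at least 1 annotated Mcm7 transcript. Another copy each of miR-19b-3p and miR-92a-3p, identical in mature sequence, is encoded on chromosome X, in the miR-106a to miR-363 cluster (chrX:52741693-52742567, minus strand), so that these members can come from either locus.

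With 1 entry per name, the libraries held 1559288 to 2023475 counts in the GCI group and 1423905 to 1750612 in the Sham group. Levels are given as CPM, counts relative to the TMM-scaled library size. A miRNA with 0 counts could be present at up to 3 counts, or 1.45 to 2.05 CPM depending on the library, by counting error alone. The 3 neuron markers used to check the tissue (miR-124-3p, miR-9-5p and miR-128-3p) summed to 83583 to 94402 CPM in GCI and 88903 to 105808 CPM in Sham. Of 440 miRNAs tested with edgeR's quasi-likelihood test, 10 passed an adjusted p of 0.05 (2.27%), and this count was 1 without GCI library 1, 100 without GCI library 2, and 0 without GCI library 3 or Sham library 6.

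None of the 10 members passed that threshold. All 10 had enough counts to be tested, and the number called was 0 of 10, against 2.27% of all tested miRNAs (edgeR, Benjamini-Hochberg adjusted p 0.291 to 0.914). DESeq2 called 0 of 10, against 5.91% of all tested miRNAs, and limma-voom 0 of 10, against 2.27%. At an unadjusted p under 0.05 edgeR gave 1 member, miR-93-5p, against 16.8% of all tested miRNAs. The groups did not overlap for 1 member, miR-20a-5p, against 21.8% of all tested miRNAs. Of the log2 fold changes of GCI over Sham, 6 of 10 were above 0, against 44.8% of all tested miRNAs, and 4 below, with a median of 0.28, beside a median of −0.054 over all tested miRNAs.

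**Figure D1:**
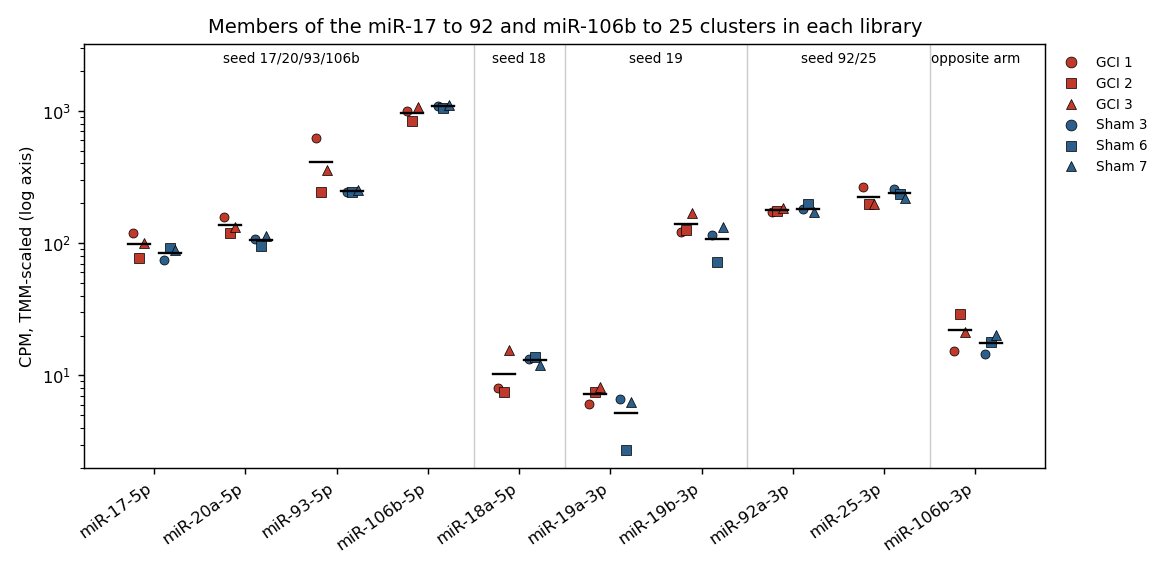
Level of each member in each library, as TMM-scaled CPM on a log axis, with GCI libraries in red left of Sham libraries in blue, and a black bar at each group mean. Levels span 2.74 to 1103 CPM, and for miR-93-5p the Sham points sit together while GCI libraries 1 and 3 lie above them.

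Levels of the members differed far more from one another than between the groups. Over the 6 libraries miR-106b-5p had the highest mean (1026 CPM, ranked 82 of the 622 names), followed by miR-93-5p (327 CPM), miR-25-3p (229 CPM), miR-92a-3p (180 CPM), miR-19b-3p (123 CPM), miR-20a-5p (121 CPM), miR-17-5p (91.6 CPM), miR-106b-3p (19.7 CPM), miR-18a-5p (11.7 CPM) and miR-19a-3p (6.23 CPM, ranked 434). The place of miR-92a-3p depends on its repeated rows, whose counts differ: with repeated rows summed, miR-92a-3p (179 CPM) and miR-19b-3p (168 CPM) stood above miR-25-3p (156 CPM), while miR-106b-5p and miR-93-5p kept the first places. The rise of miR-19b-3p came from adding 2 rows with the same counts in every library but Sham library 7 (228 and 229). Its extra counts may thus be the same reads counted again. The counts of miR-25-3p, which has 1 row, were unchanged, and its CPM fell as the scaled library totals grew. With 1 row per name, most neighbours in this order kept it in 6 of 6 libraries. The exceptions were miR-93-5p over miR-25-3p and miR-18a-5p over miR-19a-3p, each in 5 of 6, and miR-19b-3p over miR-20a-5p, in 4 of 6, which did not differ beyond their spread. The mature forms are all 21 to 23 bases long, but adapter ligation favours some end sequences, so an order of read counts need not be an order of molecules. Together the 10 members took 0.238%, 0.180% and 0.232% of counts in GCI libraries 1, 2 and 3, against 0.213%, 0.208% and 0.210% in Sham libraries 3, 6 and 7.

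The seed group of miR-17, miR-20a, miR-93 and miR-106b, whose members repress the cell-cycle inhibitor Cdkn1a (p21), summed to 1894, 1280 and 1664 CPM in GCI libraries 1, 2 and 3, against 1519, 1486 and 1554 CPM in Sham libraries 3, 6 and 7. The GCI libraries lay on both sides of the narrow Sham range. The group means were 1613 ± 311 CPM in GCI and 1520 ± 34.1 CPM in Sham (SD, n = 3 each), a log2 ratio of 0.086, which was −0.032 without GCI library 1. A sum over chosen members was given no test.

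Within this seed group, miR-93-5p had the largest log2 fold change of the 10 members. It measured 627, 244 and 355 CPM in GCI libraries 1, 2 and 3, against 243, 245 and 251 CPM in Sham libraries 3, 6 and 7. GCI libraries 1 and 3 stood above every Sham library, whereas GCI library 2 stood among them, so the groups overlapped. The log2 fold change was 0.73 ± 0.32 (SE, 95% interval 0.015 to 1.44), with an unadjusted p of 0.0462 and an adjusted p of 0.291 (edgeR quasi-likelihood test, Benjamini-Hochberg). Without GCI library 1 it was 0.30, and without GCI library 2 it was 0.99 and passed the threshold (edgeR adjusted p = 0.0232, Benjamini-Hochberg), a fit in which 100 miRNAs passed. Under every alternative except the one without GCI library 2, its adjusted p lay between 0.230 and 0.595 (edgeR, DESeq2 and limma-voom, Benjamini-Hochberg).

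The remaining members of the seed group differed by smaller amounts. For miR-20a-5p the values were 158, 119 and 132 CPM in GCI libraries 1, 2 and 3, against 107, 95.1 and 113 CPM in Sham libraries 3, 6 and 7. Every GCI library was above every Sham library, by a small margin between GCI library 2 and Sham library 7, and the log2 difference was 0.38 ± 0.20 (SE, adjusted p = 0.343, edgeR, Benjamini-Hochberg). Its neighbour in the cluster, miR-17-5p, measured 118, 77.3 and 100.4 CPM in GCI and 73.9, 91.7 and 88.0 CPM in Sham, with overlap and a log2 difference of 0.22 ± 0.23 (SE), which was 0.089 without GCI library 1 and 0.37 without GCI library 2. The most abundant member, miR-106b-5p, measured 991, 840 and 1076 CPM in GCI and 1095, 1054 and 1103 CPM in Sham. GCI library 3 lay inside the Sham range and the other two GCI libraries below it, with a log2 difference of −0.16 ± 0.18 (SE, 95% interval −0.57 to 0.25).

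**Figure D2:**
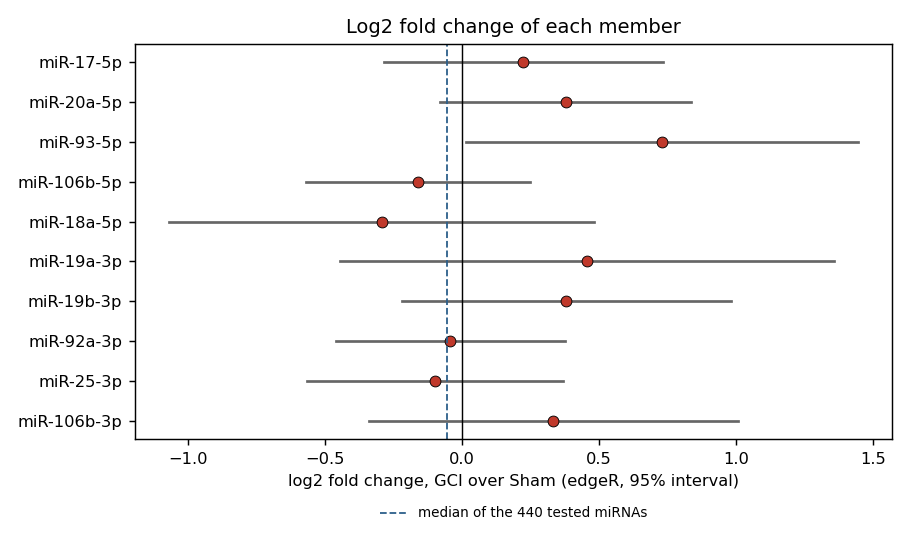
Log2 fold change of GCI over Sham for each member (point) with its 95% interval from edgeR (line), and the median of all 440 tested miRNAs (dashed). The interval of miR-93-5p, 0.015 to 1.44, lies above 0 and those of the other 9 members include 0.

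Because miR-93-5p and miR-106b-5p come from the same primary transcript, their counts were also set against each other within each library, where no scaling is needed. This pair was singled out after its values were seen, and is given as a description. The ratio of miR-93-5p to miR-106b-5p counts was 0.633, 0.290 and 0.330 in GCI libraries 1, 2 and 3, against 0.222, 0.232 and 0.228 in Sham libraries 3, 6 and 7. All 3 GCI ratios lay above the Sham ratios, GCI library 2 included, and the Sham ratios were nearly equal. As a share of the counts of the seed group, miR-93-5p took 33.1% (95% Wilson interval 31.4% to 34.9%), 19.05% (17.4% to 20.8%) and 21.3% (20.0% to 22.7%) in the GCI libraries. In Sham it took 16.0% (14.6% to 17.5%), 16.5% (15.0% to 18.1%) and 16.1% (14.8% to 17.6%), intervals that cover counting error only. The interval of GCI library 2 overlapped those of the Sham libraries, and those of GCI libraries 1 and 3 did not.

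**Figure D3:**
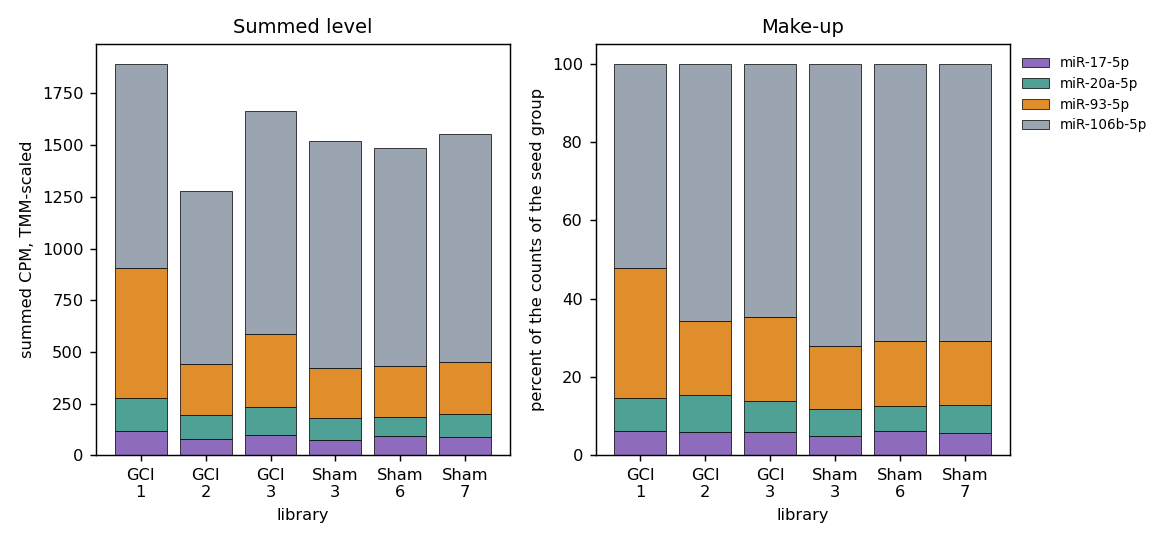
Left, TMM-scaled CPM of miR-17-5p, miR-20a-5p, miR-93-5p and miR-106b-5p stacked for each library. Right, the percent of the counts of these 4 that each member took, where miR-93-5p (orange) took 33.1%, 19.05% and 21.3% in the GCI libraries and 16.0% to 16.5% in the Sham libraries.

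In contrast to miR-93-5p, the third miRNA of the same transcript, miR-25-3p, had overlapping ratios to miR-106b-5p in the groups. They were 0.270, 0.237 and 0.184 in GCI libraries 1, 2 and 3, against 0.235, 0.222 and 0.200 in Sham libraries 3, 6 and 7. The ratio of miR-93-5p to miR-25-3p was 2.34, 1.23 and 1.79 in GCI, against 0.944, 1.05 and 1.14 in Sham, without overlap. Whether these ratios differ between the groups was not tested.

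The other arm of the miR-106b hairpin was also measured. The 82-base hairpin (chr5:138165737-138165818, minus strand, GRCm38.p6) is shown with its arms in capitals, miR-106b-5p first and miR-106b-3p second.
Mir106b: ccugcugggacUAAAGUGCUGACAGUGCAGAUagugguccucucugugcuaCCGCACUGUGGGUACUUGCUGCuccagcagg

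By counts, the 5p arm was the dominant product in every library. There were 64.3, 28.7 and 50.7 counts of miR-106b-5p for each count of miR-106b-3p in GCI libraries 1, 2 and 3, against 76.0, 59.2 and 54.7 in Sham libraries 3, 6 and 7. GCI library 2 had the lowest ratio and the groups overlapped. The difference of the mean log2 ratios was −0.47, with a within-group SD of 0.46, and it was −0.13 without GCI library 2. The 3p arm rested on 23 to 47 counts per library, and measured 15.4, 29.3 and 21.2 CPM in GCI and 14.4, 17.8 and 20.1 CPM in Sham (log2 difference 0.33 ± 0.30, SE, which was 0.086 without GCI library 2 and 0.53 without GCI library 1).

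**Figure D4:**
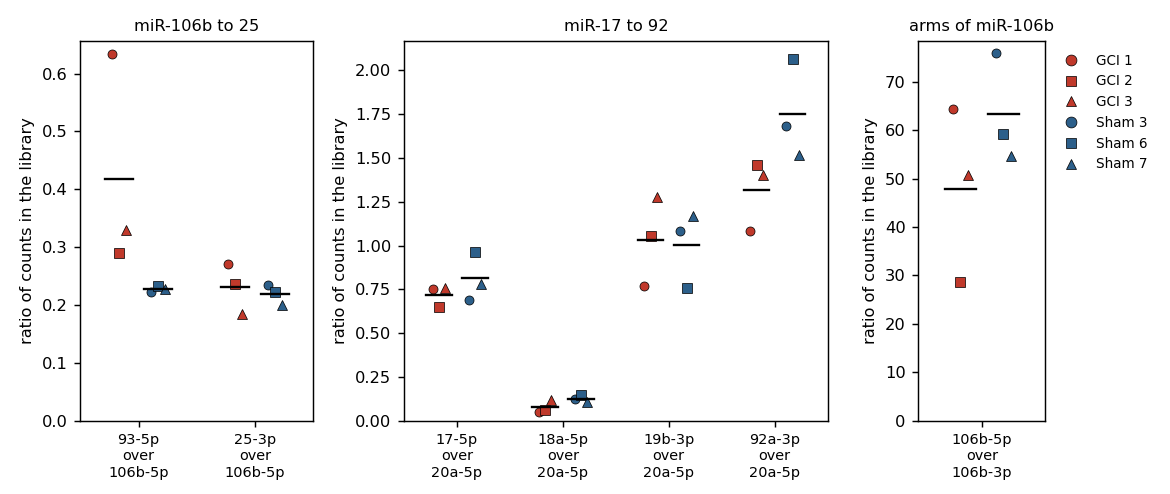
Ratios of counts within each library, on linear axes from 0, with GCI libraries in red left of Sham libraries in blue and a bar at each group mean. For miR-93-5p over miR-106b-5p the GCI ratios (0.290 to 0.633) lie above the Sham ratios (0.222 to 0.232), and for miR-92a-3p over miR-20a-5p the GCI ratios (1.08 to 1.46) lie below the Sham ratios (1.51 to 2.06).

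The seed group of miR-19 summed to 128, 133 and 177 CPM in GCI libraries 1, 2 and 3, against 123, 74.6 and 138 CPM in Sham libraries 3, 6 and 7. GCI library 3 was the highest and Sham library 6 the lowest, and the rest lay between 123 and 138 CPM. The means were 146 ± 27.1 CPM in GCI and 112 ± 33.1 CPM in Sham (SD, n = 3 each), a log2 ratio of 0.38, which was 0.21 without Sham library 6. Nearly all of it was miR-19b-3p, with 122, 125 and 169 CPM in GCI and 116, 71.9 and 132 CPM in Sham (log2 difference 0.38 ± 0.27, SE, adjusted p = 0.468, edgeR, Benjamini-Hochberg). Its sister miR-19a-3p, with 4 to 17 counts per library, measured 6.02, 7.48 and 8.20 CPM in GCI and 6.61, 2.74 and 6.33 CPM in Sham. The counts of miR-19b-3p were 16.7 to 20.6 times those of miR-19a-3p in GCI and 17.5 to 26.3 times in Sham, although both hairpins lie in the chromosome 14 cluster. Since miR-19b-3p also has a hairpin on chromosome X, and the 2 sequences differ at 1 base, this ratio does not measure the output of the chromosome 14 transcript alone.

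In its own seed group, miR-18a-5p measured 8.03, 7.48 and 15.4 CPM in GCI libraries 1, 2 and 3, against 13.2, 13.7 and 12.1 CPM in Sham libraries 3, 6 and 7. GCI libraries 1 and 2 lay below the Sham range and GCI library 3 above it. These levels came from 12, 12 and 32 counts in GCI and 22, 20 and 21 counts in Sham, and the log2 difference of −0.29 ± 0.34 (SE) has a 95% interval of −1.07 to 0.48. It was −0.68 without GCI library 3 and −0.10 without GCI library 2. Per count of miR-20a-5p, encoded by the same transcript, there were 0.0508, 0.0628 and 0.117 counts of miR-18a-5p in GCI and 0.124, 0.144 and 0.107 in Sham.

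The seed group of miR-92a and miR-25 summed to 438, 373 and 384 CPM in GCI libraries 1, 2 and 3, against 437, 431 and 391 CPM in Sham libraries 3, 6 and 7, with means of 398 ± 35.2 and 419 ± 24.6 CPM (SD, n = 3 each) and a log2 ratio of −0.075. GCI library 1 was level with the highest Sham library, and GCI libraries 2 and 3 lay below all 3. Of its members, miR-92a-3p, which represses integrin α5 in endothelial cells, measured 171, 174 and 186 CPM in GCI and 180, 196 and 171 CPM in Sham (log2 difference −0.044 ± 0.19, SE, 95% interval −0.46 to 0.37). The other, miR-25-3p, measured 268, 199 and 198 CPM in GCI and 257, 234 and 220 CPM in Sham (−0.10 ± 0.21, SE, 95% interval −0.57 to 0.37). For both, the interval allows a change of either sign, and the sign itself depended on the setting: the log2 difference of miR-92a-3p was 0.066 without Sham library 6 and that of miR-25-3p was 0.037 without GCI library 3.

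Within the miR-17 to 92 transcript, the output of miR-92a-3p per count of miR-20a-5p was 1.08, 1.46 and 1.41 in GCI libraries 1, 2 and 3, against 1.68, 2.06 and 1.51 in Sham libraries 3, 6 and 7. All GCI ratios were below the Sham ratios, the closest being GCI library 2 and Sham library 7. Taken singly, 21.8% of all tested miRNAs had groups that did not overlap. No such share was counted for ratios, here or for those of miR-93-5p above. The ratios of miR-17-5p (0.649 to 0.759 in GCI, 0.691 to 0.964 in Sham) and of miR-19b-3p (0.771 to 1.28 in GCI, 0.755 to 1.17 in Sham) to miR-20a-5p overlapped between the groups. These ratios are descriptions, were not tested, and for miR-19b-3p and miR-92a-3p include reads that may come from chromosome X. As a whole the 6 members of the miR-17 to 92 cluster summed to 568 ± 51.9 CPM in GCI and 497 ± 25.1 CPM in Sham (SD, n = 3 each), and the 4 members of the miR-106b to 25 cluster to 1621 ± 296 and 1585 ± 30.2 CPM, both with overlap.

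Relatives of these miRNAs were read from a list of 23 names: the opposite arms of the member hairpins, the miR-106a to miR-363 cluster, and both arms of hairpins elsewhere that yield a miRNA with the miR-92a seed. Of these, 8 were in the count tables, 3 had enough counts to be tested, and 0 passed (edgeR, Benjamini-Hochberg adjusted p 0.622 to 0.823, 0 at an unadjusted p under 0.05, and 0 by DESeq2 or limma-voom). The 3 tested relatives carry the AUUGCAC seed, and are shown for comparison with miR-92a-3p and miR-25-3p above.
miR-92b-3p: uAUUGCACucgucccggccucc
miR-32-5p: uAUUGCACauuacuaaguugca
miR-363-3p: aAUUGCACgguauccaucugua

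The first, miR-92b-3p, encoded on chromosome 3 and differing from miR-92a-3p at 2 of 21 bases, measured 227, 208 and 234 CPM in GCI libraries 1, 2 and 3, against 249, 288 and 197 CPM in Sham libraries 3, 6 and 7. Its level was close to that of miR-25-3p, and the groups overlapped. On chromosome 4, in an intron of Tmem245, miR-32-5p measured 167, 130 and 168 CPM in GCI and 150, 143 and 142 CPM in Sham, again with overlap. The log2 differences of these relatives were −0.13 ± 0.21 and 0.096 ± 0.20 (SE). From the chromosome X cluster, miR-363-3p had 8 to 19 counts per library (log2 difference 0.40 ± 0.41, SE). Its cluster partners were near the limit of detection, miR-106a-5p with 6, 5 and 10 counts in GCI and 3, 4 and 4 in Sham, and miR-20b-5p with 5, 6 and 3 in GCI and 6, 11 and 5 in Sham. In CPM the groups did not overlap for miR-106a-5p (3.12 to 4.83 in GCI, 1.80 to 2.74 in Sham) and overlapped for miR-20b-5p. Neither had enough counts to be tested, and 21.8% of all tested miRNAs had groups that did not overlap. For comparison, miR-17-5p, which differs from miR-106a-5p by 1 base, had 124 to 208 counts in GCI and 123 to 153 in Sham. The passenger arm miR-93-3p had 0 to 4 counts per library, against 358 to 937 of miR-93-5p.

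Profiles across the 6 libraries were compared by the root-mean-square (RMS) difference of log2 CPM, each centred on its own mean, over 258 other tested miRNAs of at least 50 CPM. Nearest to miR-93-5p were miR-10a-5p (RMS difference 0.071 on the log2 scale), miR-142a-3p (0.072) and miR-195a-5p (0.092), where the median miRNA of the 258 was at 0.60. All 3 had its order, with GCI library 1 highest and GCI library 3 next, and GCI library 2 near Sham. They were picked for likeness over these same 6 libraries, so the shared order follows from the choice and is no separate result. The leukocyte miRNA miR-142a-3p, for example, measured 118, 46.8 and 69.0 CPM in GCI libraries 1, 2 and 3, against 48.7, 42.4 and 50.6 CPM in Sham libraries 3, 6 and 7. Within its own cluster, the profile of miR-93-5p was 0.53 from that of miR-106b-5p. Nearest to miR-17-5p were miR-1224-5p (0.041), let-7b-5p (0.077) and miR-125b-2-3p (0.11), and nearest to miR-92a-3p were miR-485-3p (0.066), miR-186-5p (0.090) and let-7a-5p (0.091).

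**Figure D5:**
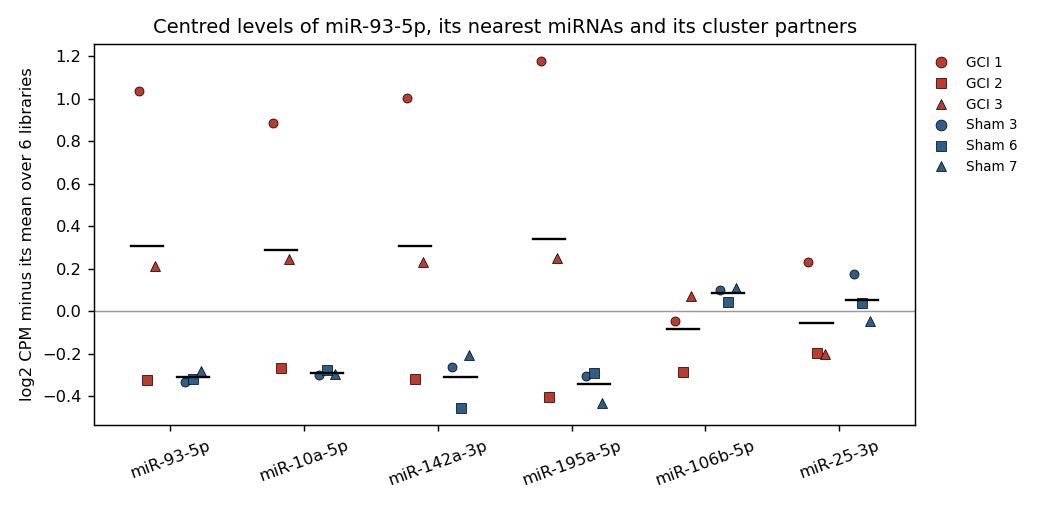
Log2 CPM minus its mean over the 6 libraries for miR-93-5p, the 3 miRNAs nearest to it in profile, and its cluster partners miR-106b-5p and miR-25-3p, with GCI libraries in red left of Sham libraries in blue and a bar at each group mean. GCI library 1 is highest for miR-93-5p (1.04) and for its 3 nearest miRNAs, and GCI library 2 lies near the Sham libraries.

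Markers of other cells were summed beside these values, since in bulk tissue fewer or more cells of a type and less or more RNA per cell cannot be told apart. The 5 leukocyte and microglia markers summed to 740, 419 and 529 CPM in GCI libraries 1, 2 and 3, against 456, 411 and 484 CPM in Sham libraries 3, 6 and 7. By adjusted p, edgeR called 0 of these 5 (2 at an unadjusted p under 0.05), DESeq2 1 and limma-voom 0. Its members were not alike: miR-150-5p, the largest part of the sum, measured 407, 308 and 309 CPM in GCI and 332, 293 and 366 CPM in Sham, and the neutrophil miRNA miR-223-3p 2.68, 0.623 and 16.9 CPM in GCI and 21.6, 14.4 and 6.91 CPM in Sham. The 3 red blood cell markers summed to 551, 405 and 505 CPM in GCI and 449, 422 and 391 CPM in Sham, with 0 of 3 called by edgeR (1 at an unadjusted p under 0.05), 1 by DESeq2 and 0 by limma-voom. These markers were not alike either. The log2 fold change was above 0 for 2 of the 3, among them miR-144-3p, for which it was near 0 (0.040 ± 0.25, SE). The 2 endothelial markers summed to 3389 to 4391 CPM in GCI and 3427 to 3857 CPM in Sham, with 0 of 2 called by edgeR (0 at an unadjusted p under 0.05), DESeq2 or limma-voom. All 8 epithelial markers, of the miR-200 family and miR-183 cluster, were called higher in GCI by edgeR, with sums of 50923, 22069 and 27224 CPM in GCI and 1982, 5107 and 7191 CPM in Sham. Over all tested miRNAs edgeR called 2.27%. The number called was 0 without GCI library 3 or Sham library 6, and 1 without GCI library 1. The leukocyte, red blood cell and epithelial sums were all highest in GCI library 1 and next in GCI library 3, as miR-93-5p was. In GCI library 2, unlike miR-93-5p, the epithelial sum was above every Sham library. Not every marker had the order of its sum. Red blood cell miR-144-3p measured 20.1, 18.7 and 28.0 CPM in GCI and 21.6, 22.6 and 21.3 CPM in Sham. Among epithelial markers, miR-182-5p had the order in GCI (16465, 7224 and 10198 CPM) and miR-200b-3p did not (3555, 2269 and 1740 CPM). The endothelial sum (4391, 4269 and 3389 CPM in GCI libraries 1, 2 and 3) did not have the order of miR-93-5p. Its 2 markers differed. The larger part, miR-126a-3p, measured 3585, 3867 and 2721 CPM in GCI and 2877, 3042 and 3370 CPM in Sham. The other, miR-126a-5p, had that order, with 807, 402 and 668 CPM in GCI and 550, 498 and 487 CPM in Sham. Nor did the neuron sum (94402, 86439 and 83583 CPM in GCI libraries 1, 2 and 3). Of the 3 neuron markers, 0 were called by edgeR (0 at an unadjusted p under 0.05), DESeq2 or limma-voom. The log2 fold change was above 0 for 0 of the 3. For miR-128-3p the groups did not overlap, with 4591, 7363 and 5627 CPM in GCI and 7735, 8574 and 8171 CPM in Sham. Such groups were found for 21.8% of all tested miRNAs. How many of all tested miRNAs had the order of miR-93-5p was not counted. None of these markers was at 0 in any library. The part of these cells in the values of miR-93-5p was not tested.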

How the data were processed

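Small RNA libraries were made from 1 µg of total brain RNA with the NEBNext kit, with inserts of 15 to 35 nt, per the labels' protocols. Cutadapt and Bowtie were used, per the submitters' processing notes; no version, genome build or miRNA reference is stated there. Each deposited table holds raw read counts, whole numbers not normalized by the authors, for mature miRNA names. Of 727 deposited rows, repeated names were reduced to the row with the highest total, leaving 622 names. No pair of libraries of a group agreed within sampling noise (the lowest chi-square per degree of freedom was 50.3).

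The main test was edgeR 4.0.16 under R 4.3.3 (quasi-likelihood test, filterByExpr with a minimum count of 10 and a minimum total of 15, TMM, group as the only term). P-values were adjusted over all 440 tested names (Benjamini-Hochberg) and called below 0.05. The median log2 fold change was −0.054 and the biological coefficient of variation 25.3%. Standard errors come from the quasi-likelihood F statistic. The fit was tested on simulated counts. Alternatives were RLE or total-count scaling, the 5 most abundant names left out, summed repeated rows, no filter, 10 CPM in 3 libraries, robust estimation, DESeq2 1.42.0, limma-voom (limma 3.58.1) and each library left out. Hairpin positions are from GENCODE vM21 and sequences from RefSeq.

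The members, lists and alternatives were chosen with earlier results of these data known. The text names every member, each tested relative, and for miR-17-5p, miR-92a-3p and miR-93-5p the 3 miRNAs of at least 50 CPM nearest in centred log2 CPM with a prior count of 2. Untested relatives and the within-library ratios other than that of the miR-106b arms were added after their values were seen.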

Additional observations from a re-analysis of the deposited data

How the results depend on the processing

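Over all miRNAs, the 10 calls became 4 with RLE size factors, 4 without the 5 most abundant names, 26 with DESeq2 and 0 to 100 with single libraries left out, and the cause was not tested. The number of members called was 0 under every alternative except the fit without GCI library 2, which called miR-93-5p (0 to 1 over the fits that leave out 1 library). The log2 fold changes of miR-17-5p, miR-18a-5p, miR-19a-3p, miR-19b-3p, miR-20a-5p, miR-93-5p, miR-106b-5p and miR-106b-3p kept their sign under every alternative that could be fitted. Those near 0 did not. For miR-92a-3p the sign turned with RLE size factors (0.0016), without the 5 most abundant names (0.0056), with summed repeated rows (0.013), with DESeq2 (0.0020) and without Sham library 6 (0.066), in a range of −0.085 to 0.066 over the fits that leave out 1 library. It turned for miR-25-3p without GCI library 3 (0.037) or Sham library 3 (0.0045), in a range of −0.25 to 0.037, and for miR-92b-3p without Sham library 6 (0.054), in a range of −0.27 to 0.054. Each of the turned values is smaller than the standard error of its miRNA. A filter of 10 CPM in 3 libraries left miR-19a-3p and miR-363-3p untested. With single libraries left out, the log2 ratios of the seed-group sums ranged from −0.032 to 0.22 (miR-17), −0.69 to −0.15 (miR-18), 0.21 to 0.57 (miR-19) and −0.14 to 0.011 (miR-92), and the difference of the log2 arm ratio of miR-106b from −0.72 to −0.13. Depth limits miR-19a-3p (4 to 17 counts), miR-18a-5p (12 to 32) and miR-106b-3p (23 to 47) most. No paired analysis was possible because the labels state no pairing of GCI with Sham libraries.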

Other observations

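The name miR-92a-3p is listed in 2 rows, and these did not hold the same counts, although RefSeq gives the mature sequence of both hairpins as identical. The row with fewer counts held 130, 111 and 179 counts in GCI libraries 1, 2 and 3, against 121, 145 and 141 in Sham libraries 3, 6 and 7. The row used above held 255, 279 and 385 counts in GCI and 299, 287 and 297 in Sham, so the ratio of the rows was 0.510, 0.398 and 0.465 in GCI and 0.405, 0.505 and 0.475 in Sham, with overlap. Which hairpin each row stands for is not given in the files. The 2 rows of miR-19b-3p, by contrast, differed by 1 count in Sham library 7 and were equal in the other 5 libraries. Of the 50 names with repeated rows, 22 had identical rows and 41 agreed within 5% in every library.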
